A study of Caenorhabditis elegans with 2 samples.

Results

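The genes described here encode the precursors of neuropeptides in the nematode Caenorhabditis elegans, the FMRFamide-like peptides (flp genes) and the neuropeptide-like proteins (nlp genes). They were chosen by name alone, as every protein-coding gene of the Ensembl release 115 annotation whose symbol is flp or nlp followed by a number. This gave 31 flp and 71 nlp genes, 102 of 19973 nuclear protein-coding genes. The binding of UNC-3 to them was measured by ChIP-seq (chromatin immunoprecipitation followed by sequencing), in which DNA attached to a protein is pulled down with an antibody and read. The animals were hermaphrodites of strain OP578, genotype unc-119(tm4063) III; wgIs578, in which a stably expressed transgene makes UNC-3 with GFP and FLAG at its C-terminus. Chromatin from whole late embryos, collected 4 hours after synchronization by egg bleaching, was sonicated and precipitated through the GFP. Both libraries, biological replicates 1 and 2, belong to this 1 group, so no untagged or unc-3 mutant embryos were compared here. The sources used here give neither the promoter that drives the transgene nor the read depth.

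UNC-3, a transcription factor of the COE family (named after Collier, Olf and EBF), is best known as a terminal selector, a factor that switches on and keeps on the identity genes of cholinergic motor neurons. Neuropeptides are made as precursor proteins that are cut by the proprotein convertase EGL-3, trimmed by the carboxypeptidase EGL-21 and often amidated, then packed into dense core vesicles and released to act on receptors of other cells. The flp genes share a C-terminal RF-amide motif in their peptides, whereas nlp is a collective name for peptide genes that are neither FMRFamide-like nor insulin-like and includes antimicrobial peptides of the epidermis. Many neuron types use peptides of both families, and a whole embryo holds only a few cells of each, so occupancy in few cells and weak occupancy in many cells cannot be told apart in these data.

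The values are peaks, stretches where the authors' peak caller found more reads than in a control, each with a summit position and a signal value whose scale is not given in the sources used here. Each replicate has a list of peaks together with background (20517 in replicate 1 and 21474 in replicate 2), and a pooled list of 15515 such peaks was made from both. The optimal IDR list holds 754 peaks that passed a threshold on the irreproducible discovery rate (IDR), a measure of how well replicates rank the same peaks. Those 754 were the strongest pooled peaks, with signal of at least 60.2, whereas the median of the whole pooled list was 25.5. Peaks of the pooled and replicate lists outside the IDR list are therefore candidates mixed with background. A gene's locus was taken as the gene plus 5000 bp upstream of its 5′ end, and a peak was counted for the gene when its summit lay there. Signal is given per list, the lists may differ in scale, and replicates are therefore compared by rank. Signal ranks start at 1 for the strongest peak of a list, and intervals are exact 95% Clopper-Pearson intervals that cover counting error only.

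Few peptide precursor genes, like few protein-coding genes as a whole, carried a strong UNC-3 peak. A summit of the IDR list lay in the loci of 4 of 102 genes (3.92%, interval 1.08 to 9.74%), against 6.36% of all protein-coding genes. These were flp-23, 1 of 31 flp genes (3.23%, 0.0816 to 16.7%), and nlp-76, nlp-57 and nlp-9, 3 of 71 nlp genes (4.23%, 0.88 to 11.9%). The intervals of both families overlap each other and contain the background share, so neither a difference between flp and nlp nor one from other genes is shown. Of the 4 genes, nlp-76 and flp-23 have their summits at the edge of a transfer RNA (tRNA) gene, and nlp-57 and nlp-9 do not.

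The sequences below come from these 4 loci and from that of nlp-21. They are printed from the plus strand of the genome reference (WBcel235, the ce11 build). The first pair shows the tRNA genes beside the summits, with the bases of the mature tRNA in capitals and an intron inside the tyrosine tRNA gene in lower case. The F22B7.t5 tRNA gene lies on the minus strand, so its sequence is printed here as the reverse complement of the tRNA. The flp-23 stretch is chrIII:8650366-8650471 and the nlp-76 stretch is chrX:12665195-12665326.
flp-23 upstream region with the proline tRNA gene F22B7.t5: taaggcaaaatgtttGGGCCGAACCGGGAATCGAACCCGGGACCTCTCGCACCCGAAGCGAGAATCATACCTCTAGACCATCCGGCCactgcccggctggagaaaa
nlp-76 upstream region with the tyrosine tRNA gene C02B4.t2: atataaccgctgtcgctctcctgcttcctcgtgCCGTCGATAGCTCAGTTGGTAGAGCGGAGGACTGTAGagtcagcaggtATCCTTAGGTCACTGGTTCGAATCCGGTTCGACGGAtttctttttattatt
The flp-23 summit, at position 8650456, lies 4 bp past the last capital base, and the nlp-76 summit, at position 12665210, lies 18 bp before the first.

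COE proteins bind as dimers to a palindrome, here TCCCNNGGGA, 10 bases of which 8 are fixed and 2 are free. It is its own reverse complement, so a match holds on both strands. It occurs 390 times in the nuclear genome, and 560 protein-coding loci (2.80%) hold at least 1 copy. Of the peptide gene loci, 4 of 102 (3.92%) hold it. The matches in the flp-23, nlp-57 and nlp-21 loci are shown in capitals with 10 bases on either side, at chrIII:8646878-8646907, chrX:11317236-11317265 and chrIII:11395003-11395032, followed by the closest match within 100 bp of the nlp-9 summit, which has 1 mismatch, at chrV:4218382-4218411.
flp-23 locus: tggccattgtTCCCGGGGGAcagttttgcg
nlp-57 locus: agcgggcgcgTCCCTTGGGAttctcaggcg
nlp-21 locus: cattcgtgtcTCCCCGGGGAccaatttgta
nlp-9 summit, closest match: ccttctgatcTCTCTGGGGAgcccctactt

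The strongest peak of any peptide precursor locus was at nlp-76 (WBGene00045386, chrX:12662478-12663903, minus strand). Its summit had a signal of 69.9 in replicate 1 (rank 91), 103.8 in replicate 2 (rank 42) and 175.6 in the pooled list (rank 57). Both replicates thus placed it among their strongest peaks. The summit lay 1307 bp upstream of nlp-76, inside an intron of nhr-17, which encodes a nuclear hormone receptor and overlaps the start of nlp-76, and the replicate 1 summit fell inside the tRNA gene itself. An overlapping IDR peak in the same intron, 1511 bp upstream of nlp-76 and 103 bp from the tRNA gene, had a pooled signal of 67.0 (rank 598). Its ranks in the replicates were far apart, with signals of 11.9 (rank 16045) in replicate 1 and 41.8 (rank 484) in replicate 2.

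At flp-23 (WBGene00017693, chrIII:8650767-8652194, plus strand) the IDR summit lay between genes, 311 bp upstream. Its signal was 37.9 in replicate 1 (rank 446), 35.1 in replicate 2 (rank 718) and 67.9 in the pooled list (rank 584). The peak was among the 754 strongest of either replicate list, and the replicate summits lay on opposite sides of the proline tRNA gene, each within 7 bp of it. The flp-23 locus held another pooled summit, 3858 bp upstream at position 8646909, with a signal of 41.2 (rank 1757). The palindrome of the flp-23 locus sits under this weaker peak, its centre 16 bp from the summit, and not under the IDR peak. Replicate 2 had a peak there with a signal of 28.2 (rank 1156) and its summit 10 bp from the palindrome centre, whereas the nearest replicate 1 summit was 544 bp away, at a signal of 12.4 (rank 14383) and within 100 bp of another tRNA gene, F22B7.t2. The peak with the palindrome therefore rests on replicate 2 and the pooled list, and another gene start lies nearer to it than that of flp-23.

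At nlp-57 (WBGene00008589, chrX:11317050-11318055, plus strand) the IDR summit lay inside the gene, 349 bp from its 5′ end in an intron. The signal was 31.1 in replicate 1 (rank 728), 35.4 in replicate 2 (rank 708) and 65.0 in the pooled list (rank 633). Both replicates placed the summit within 19 bp of the pooled one. The nearest tRNA gene was 64737 bp away. The palindrome of this locus lies in the 5′ UTR of nlp-57, 201 bp from the 5′ end, with its centre 148 bp from the summit and so outside the 100 bp searched around each summit. Within those 100 bp the closest match had 3 mismatches.

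At nlp-9 (WBGene00003747, chrV:4219642-4222233, plus strand) the IDR summit lay between genes, 1224 bp upstream. Its signal was 34.0 in replicate 1 (rank 570), 27.6 in replicate 2 (rank 1219) and 62.1 in the pooled list (rank 709). It ranked higher in replicate 1 than in replicate 2, the reverse of nlp-76. The other pooled summit of the locus, 1021 bp upstream, had a signal of 34.5 (rank 2897) and was called in both replicates, at 14.4 in replicate 1 and 22.9 in replicate 2. The nearest tRNA gene was 92192 bp away, and the closest match to the palindrome, printed above, ended 17 bp from the stronger summit.

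**Figure D1:**
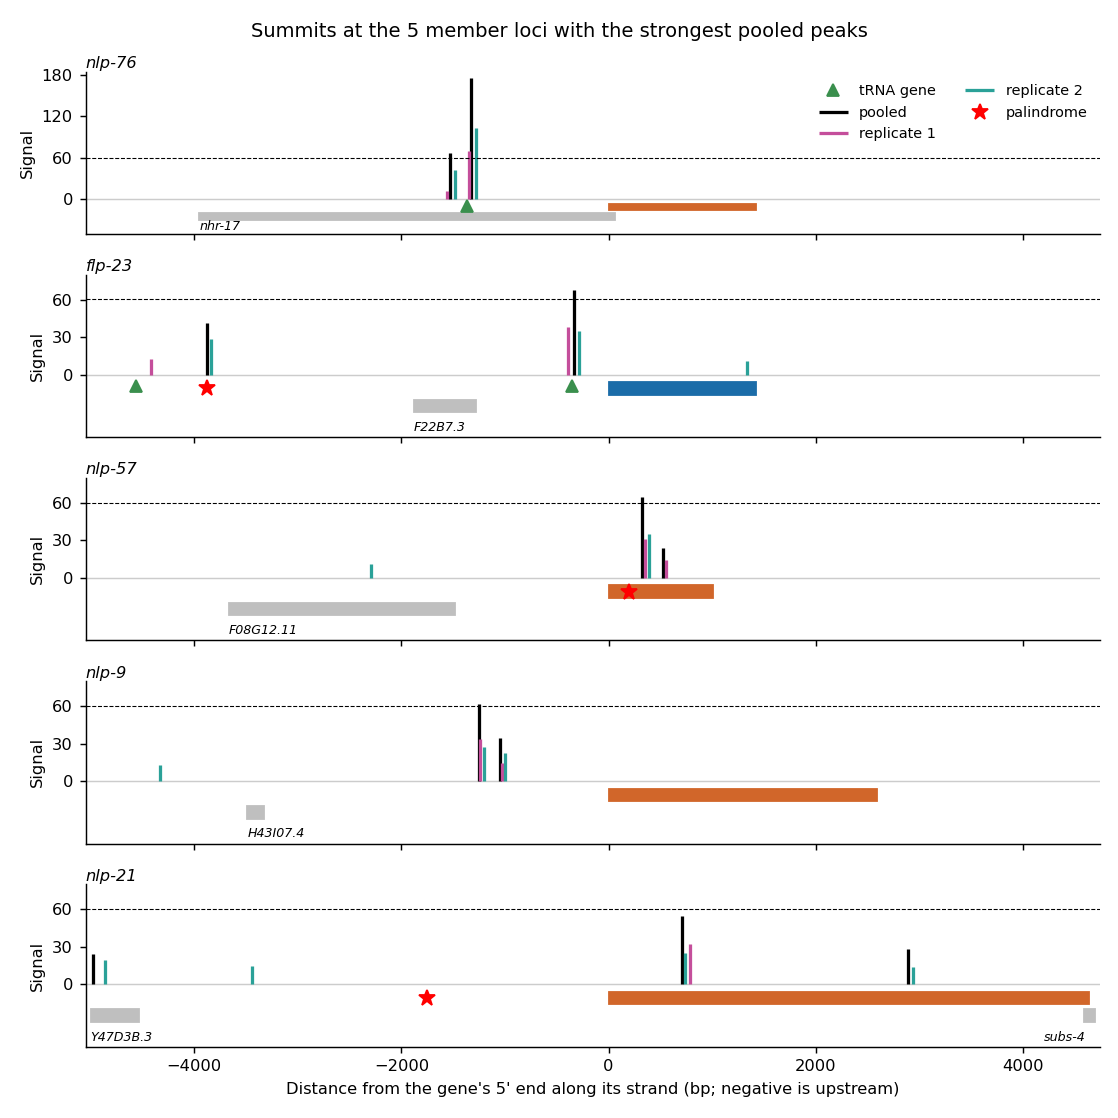
Peak summits at nlp-76, flp-23, nlp-57, nlp-9 and nlp-21, with distance from the gene's 5′ end along its own strand in bp on the horizontal axis and signal, on each list's own scale, on the vertical axis (the nlp-76 panel has a longer axis). Black, pink and green-blue lines are summits of the pooled, replicate 1 and replicate 2 lists, drawn slightly apart where they coincide, coloured bars are the peptide genes, grey bars other protein-coding genes, triangles tRNA genes, stars palindromes, and the dashed line the weakest IDR peak (60.2). The tallest lines at nlp-76 and flp-23 stand at triangles, and the star at flp-23 stands at the weaker peak of 41.2.

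Just outside the IDR list was nlp-21 (chromosome III), whose product, fused to a fluorescent protein, is widely used to follow dense core vesicles in motor neurons. Its strongest summit, in an intron 734 bp from the 5′ end, had signals of 32.2 in replicate 1 (rank 665), 25.4 in replicate 2 (rank 1510) and 54.3 in the pooled list (rank 949). In replicate 1 this peak ranked above that of nlp-57. The nlp-21 palindrome, 1756 bp upstream, was 2489 bp from the nearest pooled summit. The remaining palindrome of a peptide locus, 4553 bp upstream of nlp-39 and in the coding sequence of C54C8.12, was 3109 bp from one. A perfect palindrome in a peptide gene locus was thus within 100 bp of a pooled summit at 1 of 4 loci, flp-23. In the whole nuclear genome 128 of 390 copies (32.8%) were that close to a pooled summit.

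Below nlp-21 no peptide locus had a pooled signal above 38.8, which is still higher than the median of the whole pooled list (25.5). The gene nlp-12 (chromosome I), which encodes a cholecystokinin-like peptide released from the stretch-sensitive neuron DVA, had a summit 240 bp upstream, in the 3′ UTR of emr-1, with signals of 23 in replicate 1 (rank 1663), 17.1 in replicate 2 (rank 5183) and 38.8 in the pooled list (rank 2053). For nlp-15 (chromosome I), an orcokinin gene, the values were 21.9 (rank 2007), 11.7 (rank 15872) and 36.5 (rank 2421), at a summit 3388 bp upstream. Both ranked higher in replicate 1. The summits of nlp-82 (34.4 pooled, 20.5 in replicate 2) and nlp-53 (32.0 and 19.8), at 4212 and 3039 bp upstream, had no summit within 100 bp in replicate 1. The nearest replicate 1 summit was 188 bp away for nlp-82, in an overlapping peak with a signal of 16.9 (rank 5341), and 1780 bp away for nlp-53. For nlp-82 the nearest gene start was that of the aquaporin gene aqp-2.

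Among the other flp genes, flp-9 (chromosome IV) came next, with a summit in an intron 221 bp from its 5′ end and signals of 25.2 in replicate 1 (rank 1244), 10.3 in replicate 2 (rank 21221) and 37.3 in the pooled list (rank 2274). The replicate 2 value was close to the bottom of that list. The summit of flp-16, 60 bp upstream, had signals of 12.1 in replicate 1 (rank 15421), 14.9 in replicate 2 (rank 7984) and 30.3 in the pooled list (rank 4425). The strongest pooled summits of flp-4 (32.9), flp-25 (29.2) and flp-15 (26.7), the last encoding a ligand of the receptor NPR-3, were matched within 100 bp in replicate 2, at 22, 14.4 and 15.5, and not in replicate 1. At flp-4 an overlapping replicate 1 peak had its summit 240 bp away, with a signal of 19.5 (rank 3098). The nearest gene start was bath-38 for the flp-4 summit and K04H4.5 for the flp-25 summit. Apart from flp-23, then, no flp locus had a pooled signal above the 37.3 of flp-9.

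The remaining 11 flp loci with a pooled summit had strongest signals of 20.3 to 26.0, and the remaining 28 nlp loci 20.5 to 31.8. Some peptides with known roles in movement and sleep fall here and are named after their values were seen. At flp-18, which encodes ligands of the receptors NPR-1 and NPR-5, the pooled signal was 22.7, matched within 100 bp in replicate 2 at 14.1 and not in replicate 1, and the nearest gene start was aqp-7. At flp-1, which acts in locomotion from the AVK interneurons, the pooled signal was 20.7, at a summit in an intron of daf-10, matched in replicate 2 at 11.4 and not in replicate 1. No replicate 1 peak overlapped either of these pooled peaks. At nlp-40, an intestinal peptide gene of the defecation rhythm, the summit lay in its own intron at 26.8, with 14.2 in replicate 2 and none in replicate 1. At nlp-8, another peptide gene of the ALA neuron, the pooled signal was 22.6, and overlapping peaks had their summits 222 bp away in replicate 1 (signal 12.7) and 221 bp away in replicate 2 (17.1).

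**Figure D2:**
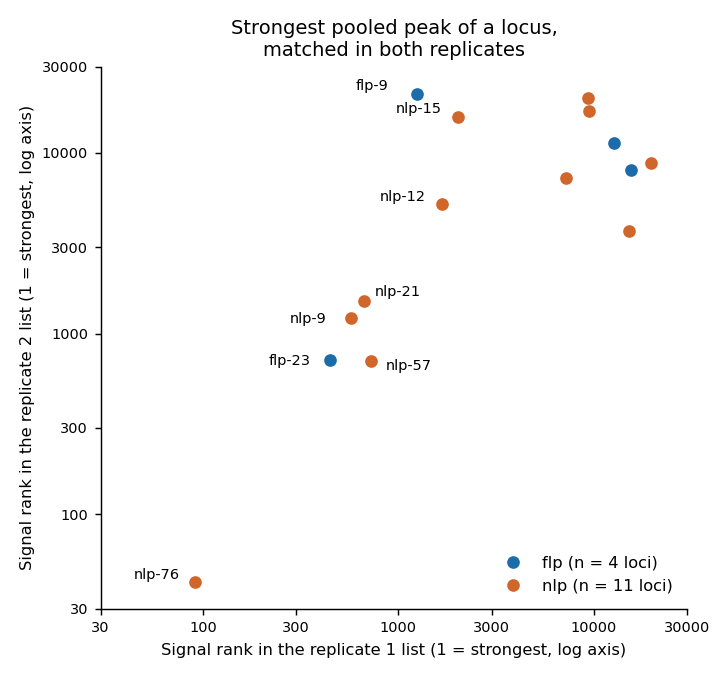
Signal rank within the replicate 1 list (horizontal, log axis) against rank within the replicate 2 list (vertical, log axis), 1 being the strongest peak, for the 15 peptide gene loci whose strongest pooled summit had a summit within 100 bp in both replicates (4 flp, blue, and 11 nlp, orange). The point for nlp-76 stands alone at ranks 91 and 42, flp-23, nlp-57, nlp-9 and nlp-21 form the next group, and flp-9 is at ranks 1244 and 21221.

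Over the whole pooled list, a summit lay in 53 of 102 peptide gene loci (52.0%, 41.8 to 62.0%), against 60.4% of all protein-coding genes. The families were close, with 17 of 31 flp loci (54.8%, 36 to 72.7%) and 36 of 71 nlp loci (50.7%, 38.6 to 62.8%). The strongest pooled signal per locus, over the loci with a summit, ran from 20.3 to 67.9 with a median of 23.2 for flp genes and from 20.5 to 175.6 with a median of 26.2 for nlp genes. Over all protein-coding loci with a summit the median was 28.5. In rank, the flp median was 10491, the nlp median 7130 and the median of all genes 5381, so the strongest peak of a typical peptide locus ranked lower than that of a typical locus with a summit. Within replicate 1 the nlp median was 14.8 and the flp median 13.0, and within replicate 2 they were 15.2 and 15.1. No test was made of these differences. The strongest peak is taken over the whole locus, and peptide loci are shorter (medians of 6186 bp for flp and 5860 bp for nlp against 7027 bp). The part of length in these signals and ranks was not tested.

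**Figure D3:**
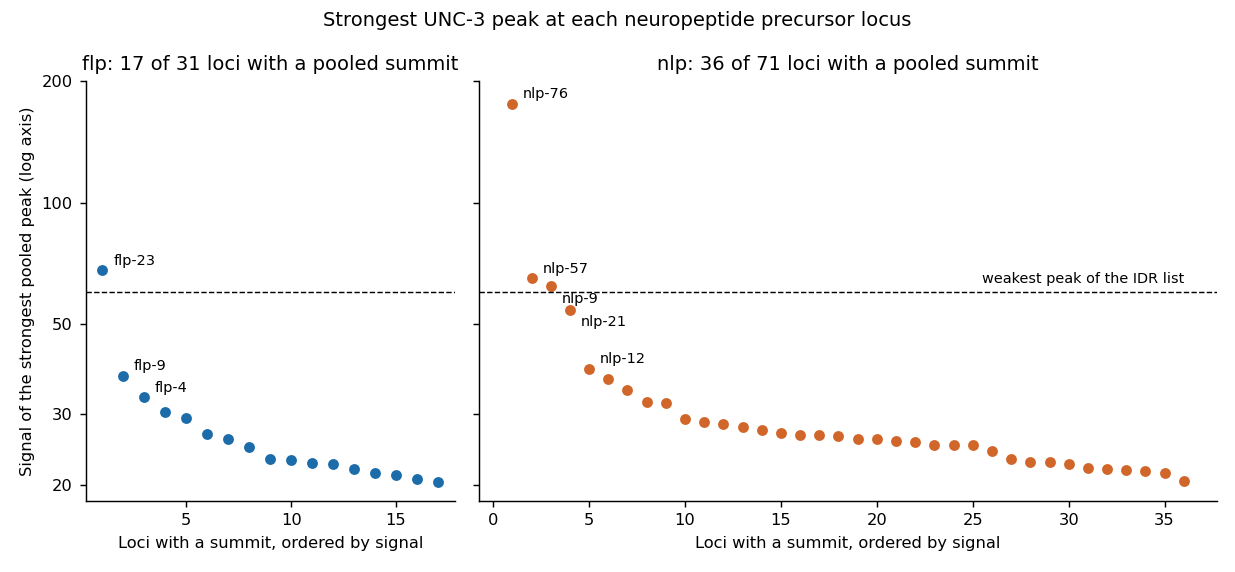
Signal of the strongest pooled peak (log axis) at each locus with a pooled summit, ordered by signal, for 17 flp genes (left) and 36 nlp genes (right); each point is 1 gene and the dashed line is the weakest IDR peak (60.2). The points of flp-23, nlp-76, nlp-57 and nlp-9 lie above the line and that of nlp-21 just below it, and the others crowd near the medians of 23.2 (flp) and 26.2 (nlp).

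The replicate lists, which hold more peaks than the pooled list, placed a summit in more of the peptide loci. In replicate 1 a summit lay in 74 of 102 loci (72.5%, 62.8 to 80.9%), against 71.9% of all genes, with 21 flp loci (67.7%) and 53 nlp loci (74.6%). In replicate 2 the counts were 68 loci (66.7%, 56.6 to 75.7%), against 71.7% of all genes, with 18 flp (58.1%, 39.1 to 75.5%) and 50 nlp loci (70.4%, 58.4 to 80.7%). Both replicates had a summit somewhere in the locus for 12 of 31 flp genes (38.7%) and 40 of 71 nlp genes (56.3%), and for 57.5% of all genes. A stricter question is whether the strongest pooled summit had a summit within 100 bp in both replicates. That held for 4 of 17 flp loci (23.5%) and 11 of 36 nlp loci (30.6%), against 38.9% of all loci with a pooled summit.

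Neither the replicates nor the pooled list had a summit at 12 peptide genes (11.8%, against 13.5% of all genes), which are named here after their values were seen. The 4 flp genes were flp-6, flp-13, flp-24 and flp-27. Of these, flp-13 and flp-24 encode peptides of the ALA neuron that act in stress-induced sleep. The 8 nlp genes were nlp-14, nlp-17, nlp-22, nlp-23, nlp-31, nlp-46, nlp-55 and nlp-58, among them nlp-22, which encodes a peptide of the RIA interneurons that promotes quiescence during molting, and nlp-14, an orcokinin gene like nlp-15. In total, 49 of 102 peptide genes lacked a pooled summit. Of these, 37 had a summit in at least 1 replicate list, with strongest signals of 11.2 to 17.0 (8 loci, replicate 1) and 14.0 to 17.4 (4 loci, replicate 2) for flp genes, and of 11.1 to 22.6 (19 loci, replicate 1) and 10.3 to 20.4 (19 loci, replicate 2) for nlp genes. Several with well-studied roles were among them, such as flp-11 (sleep neuron RIS), flp-21 (ligand of NPR-1), nlp-1 (olfactory neuron AWC) and nlp-3 (egg-laying neuron HSN), also named after their values were seen.

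A group of nlp genes on chromosome V encodes antimicrobial peptides of the epidermis rather than neuronal signals, and its loci overlap. At nlp-27, nlp-28, nlp-29, nlp-30, nlp-31 and nlp-34 there was no pooled summit. The strongest replicate summits there had signals of 16.5 in replicate 1, shared by the nlp-27 and nlp-28 loci, and 18.6 in replicate 2, shared by nlp-29, nlp-30 and nlp-34. Among all members, 13 loci overlapped that of another member, the others being flp-2, flp-3 and flp-28 and nlp-2, nlp-22, nlp-23 and nlp-45, all on the X chromosome. The 81 pooled summits in member loci were 81 different peaks. Of the 13 overlapping loci, however, only flp-28 had a pooled summit, so stretches without one were counted for more than 1 locus. The shares and intervals given here treat these loci as separate.

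The admission of weaker peaks was followed by counting loci with a summit among the strongest pooled peaks. Among the 3000 strongest, 2 flp loci (6.45%) and 7 nlp loci (9.86%) had a summit, against 19.8% of all protein-coding genes. Among the 8000 strongest the counts were 7 flp loci (22.6%) and 22 nlp loci (31.0%), against 39.8% of all genes. The share of both families lay below that of all genes at each step shown, with no test made of the difference.

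**Figure D4:**
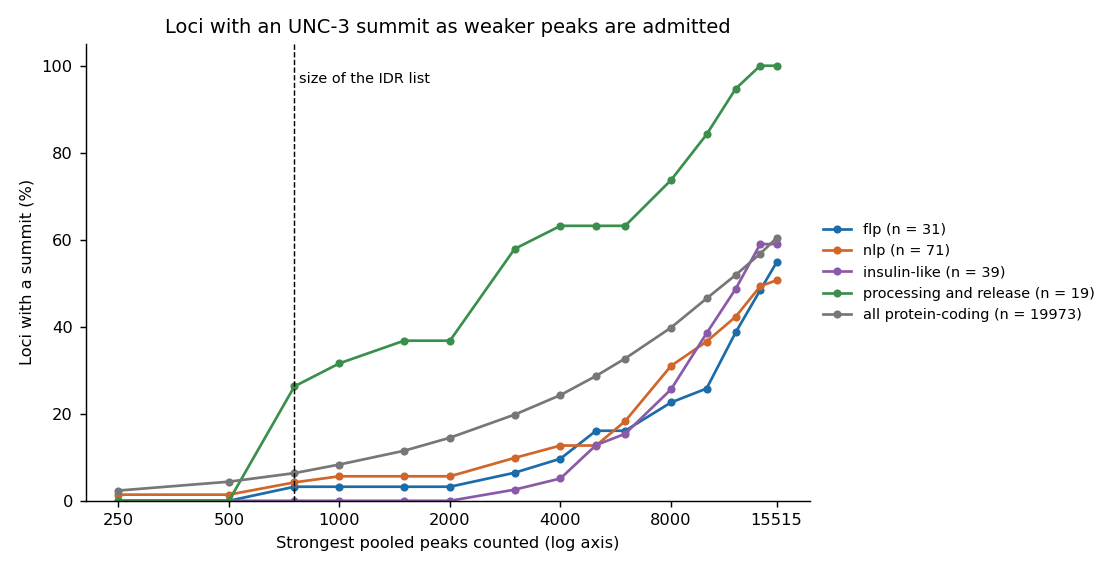
Percentage of loci with a summit (vertical) among the strongest pooled peaks, from the 250 strongest to all 15515 (horizontal, log axis), for flp, nlp and insulin-like genes, genes of peptide processing and release, and all protein-coding genes; the dashed line marks the size of the IDR list. The flp and nlp lines run below the grey line of all genes throughout and the processing and release line runs above it from the IDR size on.

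Peptide precursor genes are short, and locus length moved with these counts. The median locus was 6186 bp for flp and 5860 bp for nlp genes, against 7027 bp over all genes. Per kb of locus there were 0.115 pooled summits for flp, 0.122 for nlp and 0.153 for all genes, and 0.00458, 0.00874 and 0.00855 IDR summits. In length classes chosen after the data were seen, loci under 6000 bp held 46.1% of the peptide genes and 18.3% of all genes. In that class 15 of 47 peptide loci (31.9%) had a pooled summit, against 46.7% of all loci of that length. At 6000 to 7000 bp the values were 16 of 28 (57.1%) and 51.5%, and at 7000 bp or more 22 of 27 (81.5%) and 70.8%. For both families together, the share was thus below that of all loci in the shortest class and above it in the longer ones. Most of the overlapping member loci are in the shortest class and were counted separately. In the middle class the counts were 5 of 14 flp and 11 of 14 nlp loci, and all 9 flp loci of 7000 bp or more had a pooled summit.

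Chromosomes, also grouped after the data were seen, divided the members further. On the X chromosome, which carries 32 of the 102 peptide genes, 12 loci (37.5%) had a pooled summit, against 58.7% of all X-linked protein-coding genes. These were 6 of 13 flp and 6 of 19 nlp loci. On chromosome V, which holds the group of antimicrobial nlp genes named above among others, 8 of 21 loci (38.1%) had one, against 50% of all genes there. On chromosomes I to IV the share was 33 of 49 (67.3%), close to the 65.0% of all genes. The median locus of X-linked peptide genes was 5852.5 bp against 7548 bp for all X-linked genes, and the part of length in the X value was not tested. The overlapping member loci all lie on V or X, were counted separately, and apart from flp-28 had no pooled summit.

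**Figure D5:**
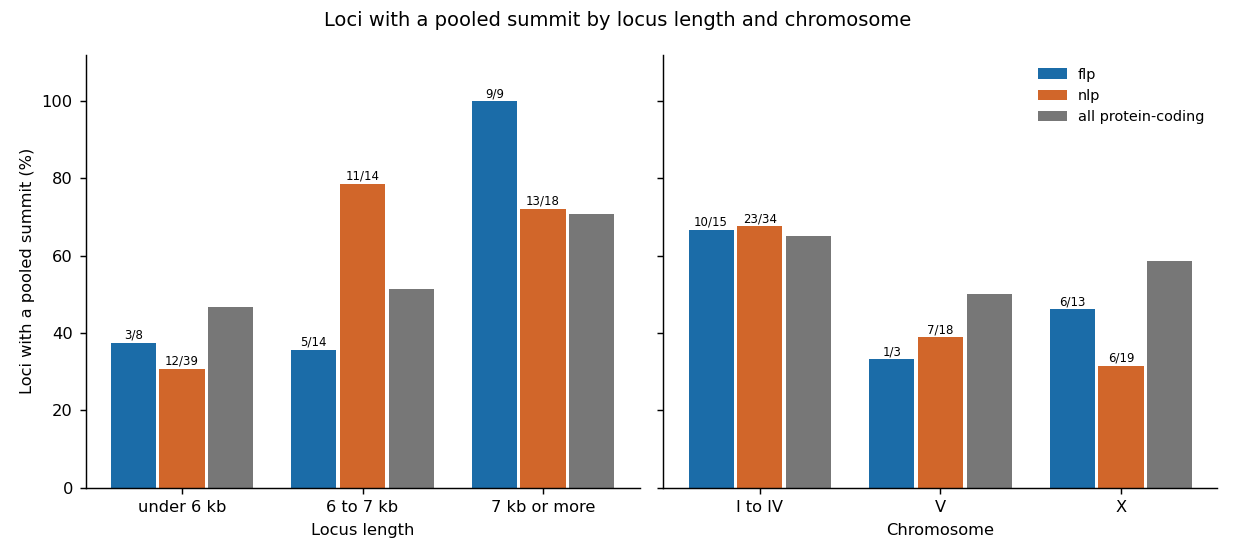
Percentage of loci with a pooled summit by locus length (left) and chromosome (right) for flp genes (blue), nlp genes (orange) and all protein-coding genes (grey); numbers over the bars give loci with a summit over loci in the class. Both peptide gene bars are below the grey bar in loci under 6 kb and on chromosomes V and X and above it in loci of 7 kb or more and on chromosomes I to IV, and at 6 to 7 kb only the flp bar is below it.

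The distance of the strongest pooled summit from the gene start, by class, was similar in peptide loci and over all genes. Of 53 such summits, 13 (24.5%) were in the gene body, 7 (13.2%) within 500 bp upstream, 12 (22.6%) at 500 to 2000 bp and 21 (39.6%) at 2000 to 5000 bp, compared with 25.8, 16, 21 and 37.1% over all genes. The protein-coding gene start nearest to the summit was the peptide gene's own for 35 of 53 loci (66.0%), 12 of 17 in flp and 23 of 36 in nlp genes, and for 49.5% of all loci with a summit. At the other 18 peptide loci another gene's start was nearer. Over all genes a summit can be counted for several loci (25105 counts, against 15499 nuclear summits), whereas its nearest start belongs to a single gene. The part of this in the difference was not tested. Taking all 81 pooled summits in peptide loci, 38 (46.9%) were between genes, 28 (34.6%) in introns, 10 (12.3%) in coding sequence and 5 (6.17%) in 3′ UTRs, and none was in a 5′ UTR. Over all 15499 nuclear pooled summits these shares were 44.3, 38.4, 11.6 and 3.42%, with 2.20% in 5′ UTRs. Many of these features belong to a neighbouring gene.

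Because flp-23 and nlp-76 have their IDR summits at tRNA genes, the presence of tRNA genes in peptide loci was counted. A tRNA gene lay in 3 of 102 peptide loci (2.94%), those of flp-23, nlp-76 and nlp-62, and in 619 protein-coding loci in all (3.10%). An IDR summit was present in 2 of these 3 peptide loci and in 203 of the 619 (32.8%). Of the 99 peptide loci without a tRNA gene 2 had an IDR summit (2.02%), nlp-57 and nlp-9, against 5.51% of all such loci. At nlp-62 the strongest pooled summit (25.1) was 3671 bp from the nearest tRNA gene. Of all 81 pooled summits in peptide loci, 3 (3.70%) were within 200 bp of a tRNA gene, 1 at flp-23 and 2 at nlp-76, against 2.26% of nuclear pooled summits and 17.8% of nuclear IDR summits. What part the tRNA genes have in the signal at flp-23 and nlp-76 was not tested.

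At pooled summits the palindrome was rare in peptide loci, as it was elsewhere. It lay within 100 bp of 1 of 81 pooled summits in peptide loci (1.23%), the weaker flp-23 peak, and of 126 of 15499 nuclear pooled summits (0.813%). Among nuclear IDR summits the share was 4.99%. With 1 mismatch allowed, 5 peptide summits (6.17%) and 4.65% of all nuclear pooled summits had a match. A window without a match lacks only these letters.

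The genes whose products cut, package and release the peptides were scored by the same rule. This list was chosen with earlier results of these data known, so its shares describe the list and are no evidence of enrichment. Of 19 such genes, 5 (26.3%, 9.15 to 51.2%) had an IDR summit, against 6.36% of all genes, and all 19 had a pooled summit, against 60.4% of all genes, with a median strongest signal of 34.5 against 28.5. Their loci were longer, with a median of 10035 bp, and 18 of the 19 were of 7000 bp or more. In that class 70.8% of all loci had a pooled summit and 7.85% an IDR summit, and 4 of these 18 (22.2%) had an IDR summit. They had 0.240 pooled and 0.0262 IDR summits per kb. No test was made between these genes and the peptide precursors, and 2 of the 19 loci, those of unc-104 and ida-1, hold a tRNA gene.

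The list was drawn from several steps of the pathway. The 5 with an IDR summit also come from several steps, which describes these genes only. At egl-3, the convertase gene, the strongest summit had signals of 37.3 in replicate 1 (rank 464), 35.8 in replicate 2 (rank 691) and 72.2 in the pooled list (rank 520), 1125 bp upstream. At sbt-1, which encodes the 7B2 chaperone of EGL-3, the values were 28.9 (rank 889), 34.6 (rank 734) and 62.9 (rank 681), at a summit in an intron of num-1, whose start is nearer. Both genes belong to the cutting step, by the function of their products. At unc-108, which encodes RAB-2, a small GTPase of dense core vesicle maturation, the pooled signal was 73.0 (rank 504), in an intron, with 33.5 in replicate 1 (rank 599). Replicate 2 had overlapping peaks on either side of that summit, at 35.6 (rank 698), its summit just beyond 100 bp, and 22.4 (rank 2157), within it. At unc-104, which encodes the kinesin-3 that carries vesicles along axons, the values were 36.6 (rank 482), 36.1 (rank 673) and 71.2 (rank 532), 1944 bp upstream. Another IDR summit of this locus lay in an intron of unc-104, with a pooled signal of 62.4 (rank 698), 1344 bp from the nearest tRNA gene. The strongest replicate 2 summit of the locus belonged to a different peak, in an intron, at 39.9 (rank 529). At unc-31, which encodes the vesicle release factor CAPS, the pooled signal was 63.1 (rank 673) with 39.99 in replicate 1 (rank 397), and an overlapping replicate 2 peak had its summit 171 bp away at 25.5 (rank 1494). The carboxypeptidase gene egl-21 fell just outside the IDR list, with signals of 22.2 in replicate 1 (rank 1907), 34.3 in replicate 2 (rank 749) and 59.0 in the pooled list (rank 783).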

How the data were processed

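Peaks came from 2 ChIP-seq libraries of 1 group. Per the notes deposited with the files, each ce11 list of peaks and background was derived from a replicate's alignment, or both alignments, and a control alignment, and the optimal IDR list from these lists. The signal of each peak, deposited by the authors in the narrowPeak layout, is the value their peak caller gave it. It was used to describe and rank peaks within a list, and replicates were compared by rank. The sources used here name no aligner, caller, IDR threshold or signal scale. Depth is unknown. The ce10 lists and the control were not used here.

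Summits were assigned to loci, 1-based, with Python 3.11.15, pandas 2.3.3, numpy 2.4.6 and scipy 1.17.1, using Ensembl release 115 genes (19973 nuclear protein-coding, 612 tRNA) and the WBcel235 genome sequence from NCBI RefSeq. Summits of 2 lists were matched within 100 bp. The palindrome was searched within 100 bp of summits. No test was made, since there is 1 group and genes are not replicates of a condition. Locus assignment and search were tested on simulated data.

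The members, the gene lists and the analyses were chosen with earlier results of these data known. Genes were named if they had an IDR summit, were among the 5 flp or 5 nlp genes with the strongest pooled summit among the others, had a palindrome at a pooled summit, or were processing genes with an IDR summit. Other names were chosen after their values were seen. Alternatives covered locus extent, assignment, list, overlap, tRNA and palindrome windows, and each replicate alone.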

Additional observations from a re-analysis of the deposited data

How the results depend on the processing

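Of 84 alternative values for 10 results, 55 stayed within 1.5 times for a count, or within the SD of the replicate medians (lists that may differ in scale) for a median, and 29 moved. With 2000 bp upstream, 11 flp loci had a pooled summit, the flp median signal was 26.0, and 0 members had a palindrome at a pooled summit. In gene bodies alone, IDR summits lay in 0 flp, 1 nlp and 216 of all loci, pooled summits in 6 flp, 9 nlp and 4934 of all loci, the nlp median was 25.2, and tRNA genes and palindromes were at 0 members. With each summit given to the nearest gene start, all loci numbered 591 (IDR) and 7605 (pooled), and 0 members had a palindrome. The 377 strongest IDR peaks gave 0 flp, 1 nlp and 684 loci, and 1 member at a tRNA gene. The 3000 strongest pooled peaks gave 2 flp, 7 nlp and 3949 loci. Without summits near tRNA genes 0 flp loci had an IDR summit. With 1 mismatch, 4 members had a palindrome at a pooled summit. With each replicate left out, the flp median ran from 13.0 to 15.1, the nlp median from 14.8 to 15.2, and members with a palindrome from 0 (replicate 1 alone) to 1. The medians of single replicates are on each list's own signal scale. The cause of the other shifts was not tested, beyond the smaller loci or fewer peaks of the setting itself. No paired analysis was possible because there is 1 group and no result comes from a test. Depth is unknown, so whether weak peaks reflect depth could not be examined.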

Other observations

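The insulin-like peptide genes, a peptide family outside the flp and nlp names, were scored by the same rule. An IDR summit lay in 0 of 39 loci (interval up to 9.03%), against 6.36% of all protein-coding genes. A pooled summit lay in 23 loci (59.0%, 42.1 to 74.4%), against 60.4% of all genes, with strongest signals of 21 to 37.1 and a median of 25.0, against 28.5. Replicate 1 had a summit in 24 loci (61.5%, against 71.9% of all genes) and replicate 2 in 21 (53.8%, against 71.7%), and 9 loci (23.1%) had none in either replicate, against 13.9% of all genes. Of the 23 strongest pooled summits, 13 (56.5%) were 2000 to 5000 bp upstream, against 37.1% of all genes, and 9 (39.1%) had the insulin-like gene's own start as the nearest, against 49.5%. No test was made of these differences. No palindrome lay in any of the 39 loci, against 2.80% of all loci. The median insulin-like locus was 5655 bp, shorter than that of flp and nlp genes.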
